A study of Mus musculus with 24 samples.

Results

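The difference between 2 effects was described: the log2 fold change between 12 h of indole-3-acetic acid (IAA) and DMSO in a mouse embryonic stem cell line with ribosome-tethered TIR1, minus the same fold change in a line with free TIR1. It was taken for every gene with an average expression of at least 3 in the authors' deposited table, which left 8633 of 13504 genes. Both lines are E14 stem cells in which RACK1 carries an auxin-inducible degron (AID). In the Rps26Tir1 line TIR1 is joined to the small-subunit protein RPS26, a layout the labels call Ribo-Tweezer, and in the FreeTir1 line TIR1 is expressed unattached as the control. Each line has IAA libraries and DMSO libraries from free mRNA, low translation and heavy translation fractions of a polysome gradient, 2 libraries in each of the 12 groups and 24 in all. The labels give neither the number of clones behind a line nor whether the replicates were separate cultures, so p-values measure the spread between these libraries only, which may be technical.

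TIR1 is a plant F-box protein that, once bound to auxin, marks AID-tagged proteins for degradation by the proteasome. RACK1 is a WD-repeat scaffold protein of the small ribosomal subunit, placed near the mRNA exit, where it links ribosomes to signalling kinases and to the factors that handle collided ribosomes. Tethering TIR1 to RPS26 places the degradation machinery on the ribosome, whereas free TIR1 can reach RACK1 wherever it is, so the contrast between the lines asks which mRNAs respond differently to the 2 ways of removing the same protein. Stem cell markers were high: Pou5f1 had an average expression of 10.01 (log2), Zfp42 8.83, Sox2 8.68, Esrrb 8.55 and Nanog 8.33, whereas the fibroblast gene Col1a1 stood at 0.15 and the endoderm gene Gata6 at 0.90. Other markers of these cell types were not all low. Thy1, also carried by fibroblasts, stood at 3.53, Vim at 5.36 and Fn1 at 7.9985. Of endoderm genes, Gata4 stood at 1.11 and Sox17 at -0.32, but Lama1 at 4.66, Sparc at 6.17 and Apoe at 6.58. The mesendoderm gene Eomes stood at 2.74 and the neural genes Pax6 and Sox1 at 1.77 and 1.79. Whether other cell types were present was not tested. The table gives no value per library, and it states neither which treatment is the numerator of the fold change nor which fractions entered it. Differences are therefore called positive or negative, and with IAA as the numerator, which was not stated, a positive one would mean a higher relative level under IAA in Rps26Tir1 than in FreeTir1 cells. A change in the amount of an mRNA and a change in its ribosome loading cannot be told apart in these values, and the read depth behind them is unknown.

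Most differences were small. Positive values were found for 4547 of the 8633 genes, or 52.7%, and its median was 0.01. The middle of the distribution was narrow, with the 25th percentile at -0.08 and the 75th at 0.11, and 4551 genes lay within 0.1 of 0. Differences over 0.5 in size were found for 70 genes, or 0.811%. The lines shared their sign for 3030 genes that were positive in both (35.1%) and for 2725 that were negative in both (31.6%). Another 1520 genes were positive in Rps26Tir1 and negative in FreeTir1 cells (17.6%), and 1358 were the reverse (15.7%). Fold changes were spread more widely in the Rps26Tir1 line, with a median absolute deviation of 0.10 against 0.08 in the FreeTir1 line, a ratio of 1.32, although the standard errors of the lines differed little (median ratio 0.991).

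**Figure D1:**
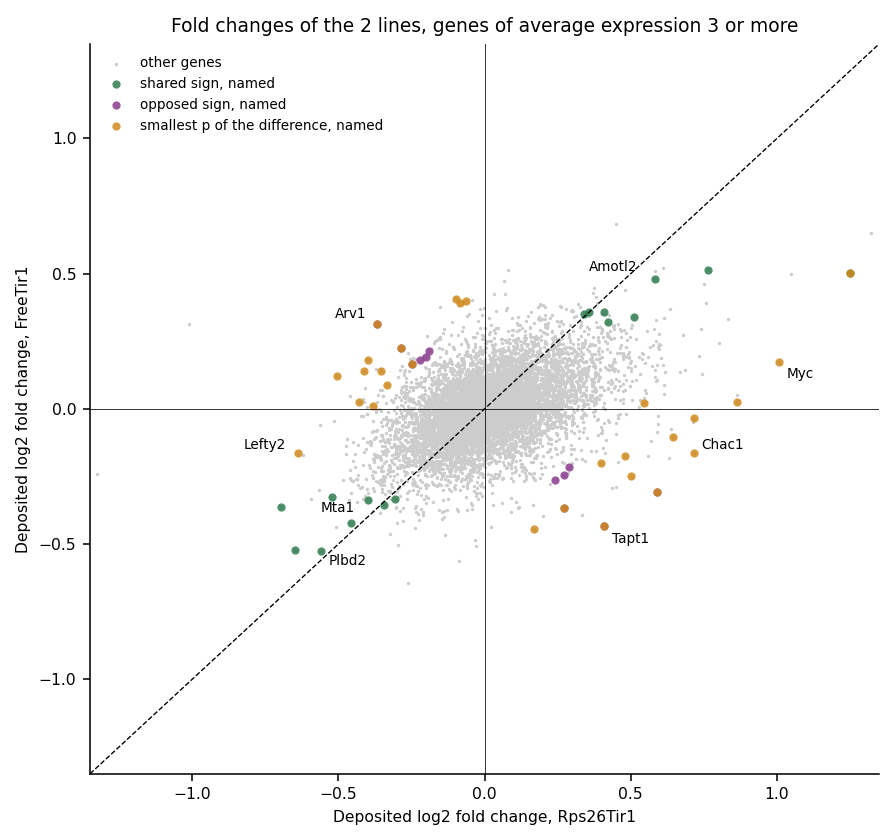
Deposited log2 fold change of each of the 8633 genes in the Rps26Tir1 line (x axis) and in the FreeTir1 line (y axis); the dashed diagonal marks equal values, and coloured points are genes named in the text. The cloud is wider along the Rps26Tir1 axis (median absolute deviation 0.10) than along the FreeTir1 axis (0.08), and few points lie far into the quadrants of opposed sign.

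No gene of this set had a difference with adjusted p under 0.05 in a moderated-t form of test with Benjamini-Hochberg adjustment over all 13504 genes (0%), and the smallest adjusted p was 0.09. Adjusted over the 8633 genes only, the smallest adjusted p in this test was 0.345. Of all genes analysed, 1 passed (0.00741%), Rnaset2b, whose average expression is below 3. At an unadjusted p under 0.05 the difference was positive for 177 of the 8633 genes (2.05%) and negative for 81 (0.938%), in all 258 genes or 2.99%, fewer than the 5% that a test without any difference would give. The share depended on expression: it was 6.31% for genes with average expression between 3 and 4, 3.26% between 4 and 5, 1.58% between 5 and 6 and 0.807% above that. The median standard error of the difference was 0.19 in the lowest of these ranges and 0.15 in the highest. Over the 8633 genes the test statistic had a standard deviation of 0.9 (robust value 0.847), less than a test without any difference would give. The test was thus conservative for the 8633 genes as a set. This does not extend to average expression between 3 and 4, where the share of 6.31% was above 5%. Below the minimum of 3, 577 of 4871 genes had an unadjusted p under 0.05 in this test. The reason for these shares was not tested. Single genes below are therefore ranked by this test without any of them passing it after adjustment.

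The positive difference with the smallest p belonged to Tapt1 (chromosome 5, 44175154 to 44226626, GRCm38), which encodes a transmembrane protein involved in skeletal patterning. In the authors' deposited table Tapt1 stood at 0.41 in Rps26Tir1 cells, against -0.43 in FreeTir1 cells. The difference of 0.84 ± 0.17 (SE) had adjusted p = 0.09 in the moderated-t form of test. Thumpd2, an RNA methyltransferase-related gene, had a difference of 0.90 ± 0.21 and adjusted p = 0.171 in the same limma-like test. Chac1 (chromosome 2, 119351229 to 119354381), an enzyme that breaks down glutathione and a textbook target of ATF4, stood at 0.72 in Rps26Tir1 cells and at -0.16 in FreeTir1 cells of the authors' deposited table, a difference of 0.88 ± 0.22. Myc, the growth-promoting transcription factor, stood at 1.01 in Rps26Tir1 cells, against 0.17 in FreeTir1 cells in the authors' deposited table. Ppp1r10, a nuclear targeting subunit of protein phosphatase 1, was positive in both lines of the authors' deposited table, 1.25 in Rps26Tir1 and 0.50 in FreeTir1 cells, and still differed by 0.75 ± 0.21. Further positive differences were those of Nfxl1 (0.62), a zinc finger gene, Tesk1 (0.75), a kinase that phosphorylates cofilin, Taz (0.75), which remodels cardiolipin, and Tnks1bp1 (0.84), a partner of the CCR4-NOT deadenylase. The phospholipase gene Plcd1 (0.75), the gluconokinase gene Idnk (0.64), the SOCS-box gene Wsb1 (0.52) and the zinc finger genes Zfp597 (0.65) and Zfp426 (0.60) completed the 14. Among these 14 genes the lines had opposite signs for 10, and 10 had an average expression below 4. Ranking by the difference itself favours opposite signs, so their number is no trait of these genes.

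Among the 14 negative differences, from -0.68 to -0.39, the smallest p was that of Arv1. Arv1 (chromosome 8, 124722139 to 124734123), which acts in sterol transport from the endoplasmic reticulum, stood at -0.37 in Rps26Tir1 cells, against 0.32 in FreeTir1 cells in the authors' deposited table, and its difference was -0.68 ± 0.17 with adjusted p = 0.211 in the moderated-t form of test. Tysnd1, a peroxisomal protease, differed by -0.62 ± 0.19. Lefty2 (chromosome 1, 180893108 to 180899103), a secreted antagonist of Nodal, was negative in both lines of the authors' deposited table, at -0.64 in Rps26Tir1 and -0.16 in FreeTir1 cells, and it was the exception among 14 genes of which 13 had opposite signs. Opposite signs are favoured by the ranking here too. Jarid2 (chromosome 13, 44729474 to 44921643), a cofactor of Polycomb repressive complex 2, had the highest expression of the 14 at 7.02. It stood at -0.25 in Rps26Tir1 cells, against 0.16 in FreeTir1 cells in the authors' deposited table, a difference of -0.41 ± 0.14. The larger absolute value was in FreeTir1 cells for 3 genes: Fastkd1, a mitochondrial RNA-binding protein, Mrtfb, a cofactor of SRF, and Camta2, a calmodulin-binding transcription activator. Fastkd1 stood at -0.06 in Rps26Tir1 cells, against 0.40 in FreeTir1 cells in the authors' deposited table, with 0.41 and 0.39 in FreeTir1 cells for Mrtfb and Camta2. The ciliary BBSome gene Bbs4 (-0.58), Pnma2 (-0.55), the mitochondrial LYR-motif gene Lyrm2 (-0.51), the tyrosine kinase gene Fer (-0.49), the Wnt-related membrane gene Tmem88 (-0.45), the dolichol-phosphate mannose synthase gene Dpm1 (-0.42) and Rspry1 (-0.39) made up the rest. The adjusted p of the 14 ran from 0.211 to 0.574 in the moderated-t form of test.

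**Figure D2:**
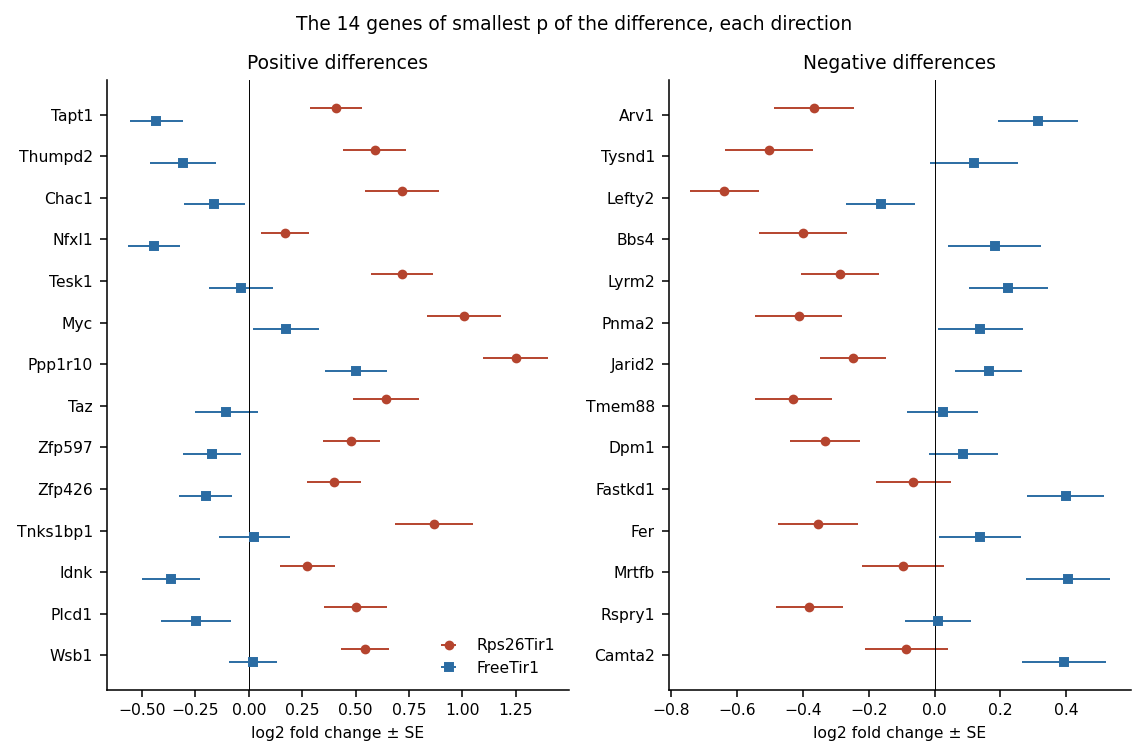
Log2 fold change ± SE of the 14 genes with the smallest p of a positive difference (left) and the 14 with that of a negative difference (right), each with Rps26Tir1 (circle) above FreeTir1 (square). Most pairs straddle 0: 10 of the 14 positive and 13 of the 14 negative differences join values of opposite sign. Picking genes by their difference favours such pairs.

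Genes past an unadjusted p of 0.05 numbered 1239 in Rps26Tir1 and 455 in FreeTir1 cells. Those past it in both lines numbered 192 and mostly shared their sign. Of these, 93 were positive in both lines (1.08% of the 8633 genes) and 96 were negative in both (1.11%). Only 2 were positive in Rps26Tir1 and negative in FreeTir1 cells (0.0232%), Tapt1 and Idnk, and 1 was negative in Rps26Tir1 and positive in FreeTir1 cells (0.0116%), Arv1. Amotl2 (chromosome 9, 102716672 to 102733418), an angiomotin that holds back the Hippo effector YAP, stood at 0.58 in Rps26Tir1 and 0.48 in FreeTir1 cells of the authors' deposited table. Cdc25a, the phosphatase that starts CDK activity, stood at 0.34 in Rps26Tir1 and 0.35 in FreeTir1 cells of the authors' deposited table, and Dtl, which targets replication proteins for degradation, at 0.51 and 0.34 in the same order of lines. Rlim, an E3 ligase known from X inactivation, differed between the lines by 0.10 ± 0.15, and Bahcc1, a chromatin reader, by 0.05 ± 0.15. Igsf9b and Kank4 were also positive in both lines. On the negative side stood the lysosomal genes Plbd2 (chromosome 5, 120483282 to 120503625) and Lamp1 and the chitobiase gene Ctbs. Plbd2 stood at -0.56 in Rps26Tir1 and -0.53 in FreeTir1 cells of the authors' deposited table, and Lamp1, a major lysosomal membrane protein, at -0.31 and -0.33 in that table in the same order of lines. Mta1 and Mta3, subunits of the NuRD repressor complex, were negative in both lines, at -0.40 and -0.34 in Rps26Tir1 cells, against -0.34 and -0.36 in FreeTir1 cells in the authors' deposited table. Aunip, Tprn and Porcn, the last an acyltransferase that lipidates Wnt proteins, were likewise negative in both. The differences of these 16 genes ran from -0.33 to 0.75, and outside Ppp1r10 none had p under 0.05. A few further opposed genes had smaller values, among them the polo-like kinase gene Plk3 (difference 0.50), the GTPase gene Gtpbp8 (0.51) and the tRNA methyltransferase gene Trmt13 (0.52) on the positive side, and Flad1 (-0.39), an FAD synthase, Vwa8 (-0.40) and Ndufa5 (-0.40) on the negative one.

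The integrated stress response, in which phosphorylated eIF2 lowers translation and raises ATF4, is read out by its target genes. Of 28 measured genes of the list 18 had positive and 10 negative differences, with a median of 0.03 beside 0.01 for all 8633 genes. The difference was positive with p under 0.05 for 4 of the 28 (14.3%, beside 2.05% of all) and negative for 0 (beside 0.938%). These were Chac1, Sesn2, Atf4 and Herpud1, whose adjusted p ran from 0.211 to 0.664 in the moderated-t form of test. Sesn2, a leucine-sensing inhibitor of mTORC1, stood at 0.48 in Rps26Tir1 cells, against -0.02 in FreeTir1 cells in the authors' deposited table. Atf4, the transcription factor of the pathway, stood at 0.30 in Rps26Tir1 cells and at -0.03 in FreeTir1 cells of the authors' deposited table, a difference of 0.33 ± 0.14. Herpud1, an endoplasmic reticulum degradation factor, stood at 0.53 in Rps26Tir1 cells, against 0.01 in FreeTir1 cells in the authors' deposited table. The pseudokinase gene Trib3, chosen after its values were seen, differed by 0.38 ± 0.19. Genes of amino acid supply had smaller or negative values: Asns, the asparagine synthetase gene, differed by 0.04 ± 0.17, Psat1 by -0.12 ± 0.15 and Phgdh, the enzyme that starts serine synthesis, by -0.33 ± 0.19; 73.5% of the stretches of Phgdh are shared with other genes. Ddit3, the CHOP gene, differed by 0.04 ± 0.23.

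The promoters of 2 of these genes are shown because the core of the amino acid response element, TGATGNAA on either strand, stands in both. The sequences are from RefSeq on GRCm38.p6, 250 bases before to 50 after the start, and capitals mark the element, here on the opposite strand. Chac1 is at chr2:119350992-119351291 (+) and Herpud1 at chr8:94386179-94386478 (+).
Chac1: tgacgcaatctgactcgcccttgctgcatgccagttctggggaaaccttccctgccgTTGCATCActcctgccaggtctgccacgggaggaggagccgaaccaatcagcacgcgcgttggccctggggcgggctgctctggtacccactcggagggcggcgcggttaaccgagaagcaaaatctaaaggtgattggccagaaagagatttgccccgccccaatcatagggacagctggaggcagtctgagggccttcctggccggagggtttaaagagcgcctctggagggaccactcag
Herpud1: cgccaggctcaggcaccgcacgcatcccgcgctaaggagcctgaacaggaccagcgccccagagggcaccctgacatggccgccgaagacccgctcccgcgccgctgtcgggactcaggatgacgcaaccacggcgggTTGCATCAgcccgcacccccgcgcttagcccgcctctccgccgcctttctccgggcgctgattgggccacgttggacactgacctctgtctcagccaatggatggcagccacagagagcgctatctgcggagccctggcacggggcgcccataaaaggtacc
Of the 8633 genes 6957 (80.6%) had a promoter in the RefSeq table, and 1.95% of these promoters held the element, against 27.3% of the integrated stress response promoters, 6 of 22. The 6 genes with it had a median difference of 0.31, and the other 16 one of 0.02. Over all promoters, the 136 with the element had a median difference of 0.02, and the 6821 without it one of 0.01. A match is a run of letters and not an observed binding site.

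The unfolded protein response list, the chaperones and degradation factors of the endoplasmic reticulum, was positive for 20 of 30 genes, with a median of 0.07, or 0.045 after regression on length, GC and expression. Herpud1 and Syvn1, the ligase of endoplasmic reticulum associated degradation, had p under 0.05 (6.67%, beside 2.05% of all). Syvn1 stood at 0.22 in Rps26Tir1 cells, against -0.28 in FreeTir1 cells in the authors' deposited table, and the calcium-binding chaperone gene Calr differed by 0.25 ± 0.15. Of the heat shock chaperones, a list that also holds the endoplasmic reticulum gene Dnajb11, 8 of 21 were positive and the median was -0.04.

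Immediate early genes, which respond to growth factor signalling without new protein synthesis, spread widely in both directions. Of 23 measured genes 16 were positive, and the median was 0.15; the list's own median was 0.21 in Rps26Tir1 cells and 0.01 in FreeTir1 cells. Positive differences with p under 0.05 were held by 5 genes (21.7%, beside 2.05%), Myc, Jun, Klf6, Btg2 and Srf, and negative ones by 2 (8.70%, beside 0.938%), Fos and Ier3. Klf6, a zinc finger transcription factor, differed by 0.38 ± 0.16 and Btg2, an antiproliferative cofactor of deadenylation, by 0.36 ± 0.16. Jun and Fos, which pair in AP-1, lay on opposite sides. Fos stood at -0.62 in Rps26Tir1 cells, against -0.17 in FreeTir1 cells in the authors' deposited table. Jun stood at 0.56 in Rps26Tir1 cells and -0.17 in FreeTir1 cells, also in the authors' deposited table, with a difference of 0.73 ± 0.34. Srf, the factor that drives many of these genes, differed by 0.35 ± 0.16 and Ier3, an apoptosis regulator, by -0.50 ± 0.22; Jun, Srf and Ier3 were chosen after their values were seen. Of 12 measured ERK feedback genes, which damp the same pathway, 8 were positive, with a median of 0.14 and 0 below p of 0.05 in either direction. The receptor-signalling inhibitor gene Spry4 had the largest of their differences, 0.48, with an SE of 0.34.

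**Figure D3:**
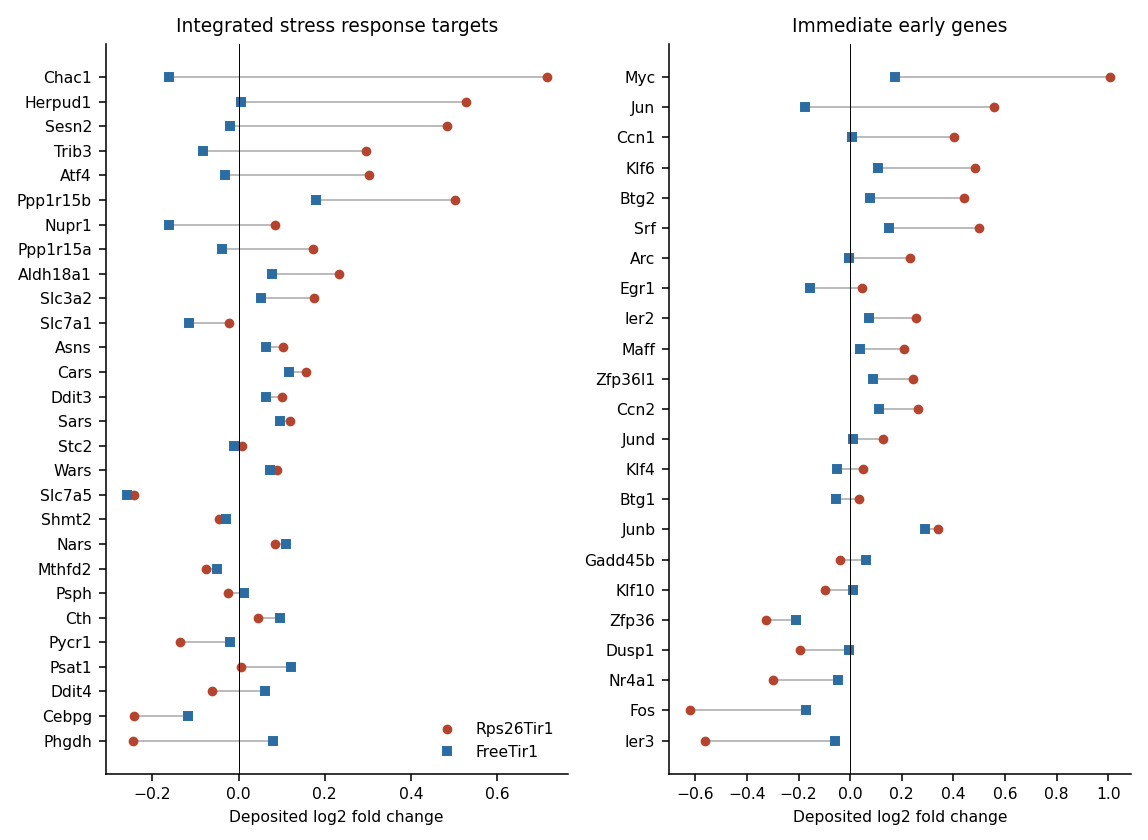
Deposited log2 fold change of the measured integrated stress response targets (left, 28 genes) and immediate early genes (right, 23 genes) in Rps26Tir1 (circle) and FreeTir1 cells (square), ordered by the difference. Chac1, Herpud1 and Sesn2 separate the lines most on the left, with Psat1 and Phgdh on the other side; on the right Myc and Jun stand at one end, Fos and Ier3 at the other.

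The p53 targets, genes of cell cycle arrest and apoptosis, had 25 of 35 positive differences and a median of 0.10, which was 0.15 when genes of average expression of at least 2 were taken in. The list's median was 0.13 in Rps26Tir1 and 0.03 in FreeTir1 cells. Plk3, Sesn2, Btg2 and Plk2 had p under 0.05 (11.4%, beside 2.05%), of which Sesn2 and Btg2 belong to other lists too. Plk2 stood at 0.47 in Rps26Tir1 cells, against 0.04 in FreeTir1 cells in the authors' deposited table. Cdkn1a, the CDK inhibitor p21, differed by 0.26 ± 0.14, Mdm2, the ligase of p53, by 0.24 ± 0.15 and Ccng1 by 0.29 ± 0.14; these 3 were chosen after their values were seen.

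Genes of the G2 and M phases leaned one way with small values. Of 50 genes 40 had positive differences, 80% beside 52.7% of all, with a median of 0.08, and 0 passed p of 0.05 in either direction. The list's median was 0.10 in Rps26Tir1 and 0.02 in FreeTir1 cells, and 17 of the 50 were positive in Rps26Tir1 and negative in FreeTir1 cells while 1 was the reverse. Incenp, which anchors Aurora B at the centromere, differed by 0.31 ± 0.17, the mitotic kinesin genes Kif18b and Cenpe by 0.37 ± 0.23 and 0.31 ± 0.21, and Prc1, which bundles the microtubules of the spindle midzone, by 0.25 ± 0.17. Other core mitotic genes differed less, with 0.05 ± 0.15 for Cdk1 and 0.10 ± 0.16 for Ccnb1. DNA replication genes were divided evenly, 24 positive and 25 negative, with a median of 0.00; Ticrr, which helps load CDC45 onto origins, was the 1 with p under 0.05, at 0.56 ± 0.23 (2.04% of the list, beside 2.05% of all).

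G2/M promoters carry a known pair of elements, the cell cycle homology region (CHR, TTTGAA) and upstream CCAAT boxes bound by NF-Y. Those of Kif18b (chr11:102925075-102925374, minus strand) and Prc1 (chr7:80294201-80294500, plus strand) are given from RefSeq on GRCm38.p6 as examples of the pair, with both elements in capitals.
Kif18b: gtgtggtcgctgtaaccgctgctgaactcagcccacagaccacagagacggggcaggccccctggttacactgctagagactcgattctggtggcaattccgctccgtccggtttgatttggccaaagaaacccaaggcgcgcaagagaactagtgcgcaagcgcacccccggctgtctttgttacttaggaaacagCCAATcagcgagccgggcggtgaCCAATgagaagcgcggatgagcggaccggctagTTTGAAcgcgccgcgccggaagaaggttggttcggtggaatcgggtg
Prc1: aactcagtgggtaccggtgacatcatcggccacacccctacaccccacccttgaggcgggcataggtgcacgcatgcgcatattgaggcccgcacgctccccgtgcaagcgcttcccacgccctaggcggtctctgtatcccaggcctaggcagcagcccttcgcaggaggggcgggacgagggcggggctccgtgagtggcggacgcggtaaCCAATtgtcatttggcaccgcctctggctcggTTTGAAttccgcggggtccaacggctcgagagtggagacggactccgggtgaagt
Searched on both strands, TTTGAA was found in 80.5% of 41 G2/M promoters, against 11.6% of all 6957. CCAAT was found in 82.9% of them, against 40.1% of all, and both together in 70.7%, against 5.16%. Outside the list 330 genes held both elements, and their median difference was 0.01 with 53% positive, close to the values of all genes.

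RNA-processing genes split by family. SR proteins and the CLK kinases that phosphorylate them, which set splice site choice, had 30 of 39 positive differences and a median of 0.11; the list's median was 0.15 in Rps26Tir1 and 0.05 in FreeTir1 cells. Clk1 stood at 0.50 in Rps26Tir1 cells, against 0.14 in FreeTir1 cells in the authors' deposited table, and Srsf5 at 0.48 and 0.07 in the same order and table. They were the 2 with p under 0.05 (5.13%, beside 2.05%). Luc7l3 and Srsf2 differed by 0.37 ± 0.18 and 0.34 ± 0.17. The hnRNP proteins showed no such lean, with 19 of 36 positive and a median of 0.01, and the Sm and LSm proteins of the spliceosome core had 9 of 25 positive and a median of -0.01. Deadenylation and decapping factors, which begin mRNA decay, were positive for 24 of 36, with a median of 0.07; Tnks1bp1, Dcp1b and Btg2 had a positive difference with p under 0.05 (8.33%, beside 2.05% of all), while Cnot1, the scaffold of CCR4-NOT, stood on the other side at -0.23 ± 0.14. Their median was 0.04 after regression on length, GC and expression.

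Zinc finger genes named Zfp, many of them of the KRAB repressor class, were positive for 117 of 177, with a median of 0.04. Of these, 13 had a positive difference with p under 0.05 (7.34%, beside 2.05%) and 2 a negative one (1.13%, beside 0.938%). Zfp597, Zfp426, Zfp97 and Zfp142 led them with differences from 0.50 to 0.65, of which Zfp97 shares 87.7% of its 31-base stretches with transcripts of other genes. The list has low expression, with a median of 4.35 beside 4.93 for all. Of genes with average expression between 4 and 5, 3.26% passed p of 0.05, and of those between 3 and 4, 6.31%, beside 2.99% of all. The median was 0.09 with genes of average expression of at least 2 and 0.02 after regression on length, GC and expression.

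Several chromatin lists had many genes positive in both lines, beside 35.1% of all genes. Histone lysine methyltransferases were positive in both lines for 21 of 33 genes, with list medians of 0.16 in Rps26Tir1 and 0.11 in FreeTir1 cells. Their median difference was 0.06, which was 0.03 after that regression and 0.04 with the lines set to equal spread, and 0 of them had p under 0.05 in either direction. Setd2, the enzyme of H3K36 trimethylation, stood at 0.20 in Rps26Tir1 and 0.28 in FreeTir1 cells of the authors' deposited table, and Kmt2a, which trimethylates H3K4, at 0.24 and 0.18 in that table. Demethylases were positive in both lines for 15 of 20, and SWI/SNF and CHD remodellers for 23 of 45, the remodellers with medians of 0.05 in Rps26Tir1 and 0.11 in FreeTir1 cells. These lists have long coding regions, with medians of 3888, 3592.5 and 3639 bases beside 1365 bases for all genes. Polycomb subunits were divided, 15 positive and 13 negative, and Jarid2 was the 1 with p under 0.05 (3.57%, beside 0.938% of all with a negative difference). RNA polymerase II subunits were negative for 11 of 13, led by Polr2k at -0.47 ± 0.21.

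Energy metabolism lists were mostly negative. Glycolysis enzymes were negative for 17 of 19, with a median of -0.14, or -0.09 with the lines set to equal spread; the list's median was -0.14 in Rps26Tir1 and -0.03 in FreeTir1 cells. Pfkp, a phosphofructokinase, differed by -0.25 ± 0.16, Ldha, lactate dehydrogenase A, by -0.23 ± 0.17 and Pkm, pyruvate kinase, by -0.18 ± 0.15; 50.9% of the stretches of Pkm are shared with other genes. Another phosphofructokinase gene, Pfkm, was an exception at 0.37 ± 0.17. It was the 1 with p under 0.05 (5.26% of the list, beside 2.05% of all). All 13 subunits of complexes II and III of the respiratory chain were negative, from -0.27 to -0.00, with a median of -0.08, and none had p under 0.05. Uqcr11 and Uqcr10 stood at -0.22 and -0.37 in Rps26Tir1 cells, against 0.02 and -0.11 in FreeTir1 cells in the authors' deposited table. The ATP synthase had 14 of 18 negative (median -0.08), complex I 28 of 37 (median -0.06) and complex IV with cytochrome c 10 of 15 (median -0.10). Ndufa5 of complex I was the 1 of these with p under 0.05, at -0.40 ± 0.17 (2.7% of complex I, beside 0.938% of all). These mRNAs are short, with median 3' parts of 131 bases for complex I, 189 for complex IV and 146.5 for ATP synthase beside 985 bases for all genes. The median 3' part of complexes II and III was longer, at 423 bases. After regression on length, GC and expression, the medians were -0.00 for complex I, -0.03 for complex IV and -0.04 for ATP synthase. The value for complexes II and III after that regression is not given here.

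Other metabolic and mitochondrial lists fell on the same side or near 0. TCA cycle enzymes were negative for 16 of 20, with a median of -0.08, led by the pyruvate carboxylase gene Pcx at -0.34 ± 0.18. Enzymes of purine and pyrimidine synthesis were negative for 20 of 26, with a median of -0.10; Pfas stood at -0.01 in Rps26Tir1 cells, against 0.22 in FreeTir1 cells in the authors' deposited table. Mitochondrial ribosomal proteins, whose median 3' part is 329.5 bases, were divided, 39 positive and 43 negative, with a median of -0.01. Cholesterol synthesis genes had 10 of 24 positive and a median of -0.03, and peroxisome genes 13 of 32 and the same median. Mitochondrial ribosomal proteins had 1 positive difference with p under 0.05 (1.22%, beside 2.05% of all). Peroxisome genes had 1 negative one (3.12%, beside 0.938% of all), and the other lists of this paragraph had 0.

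Lists of the translation apparatus had medians between -0.08 and 0.02. Small-subunit ribosomal proteins had 13 of 31 positive and a median of -0.03, and large-subunit ones 23 of 51 and a median of -0.01. Rps26, whose protein carries TIR1 in one line, differed by 0.22 ± 0.16 and Rack1, the tagged gene, by -0.24 ± 0.18; 45.5% of the 31-base stretches of Rps26 occur in transcripts of other genes. Rps27, at -1.09 ± 0.45, is uncertain since 98.7% of its stretches are shared with other genes, as is Nnt (-1.32 ± 0.56), which stands on more than 1 row of the table, had the lowest difference of all 8633 genes and was chosen after its value was seen. Initiation factors were divided, 23 positive and 25 negative. Elongation and release factors were negative for 14 of 16, with a median of -0.08; 7 of the 16 were negative in Rps26Tir1 and positive in FreeTir1 cells, and 0 were the reverse. Eef2, the translocase, stood at -0.04 in Rps26Tir1 cells, against 0.22 in FreeTir1 cells in the authors' deposited table, and Eef2k, the kinase that inactivates it, went the other way with a difference of 0.28 ± 0.24. Ribosome collision and quality control factors, a group with which RACK1 is linked, had 12 of 27 positive, a median of -0.01 and 0 genes with p under 0.05. Ribosome biogenesis factors had 50 of 87 positive, with the kinase gene Riok1 of 40S maturation at 0.37 ± 0.17.

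**Figure D4:**
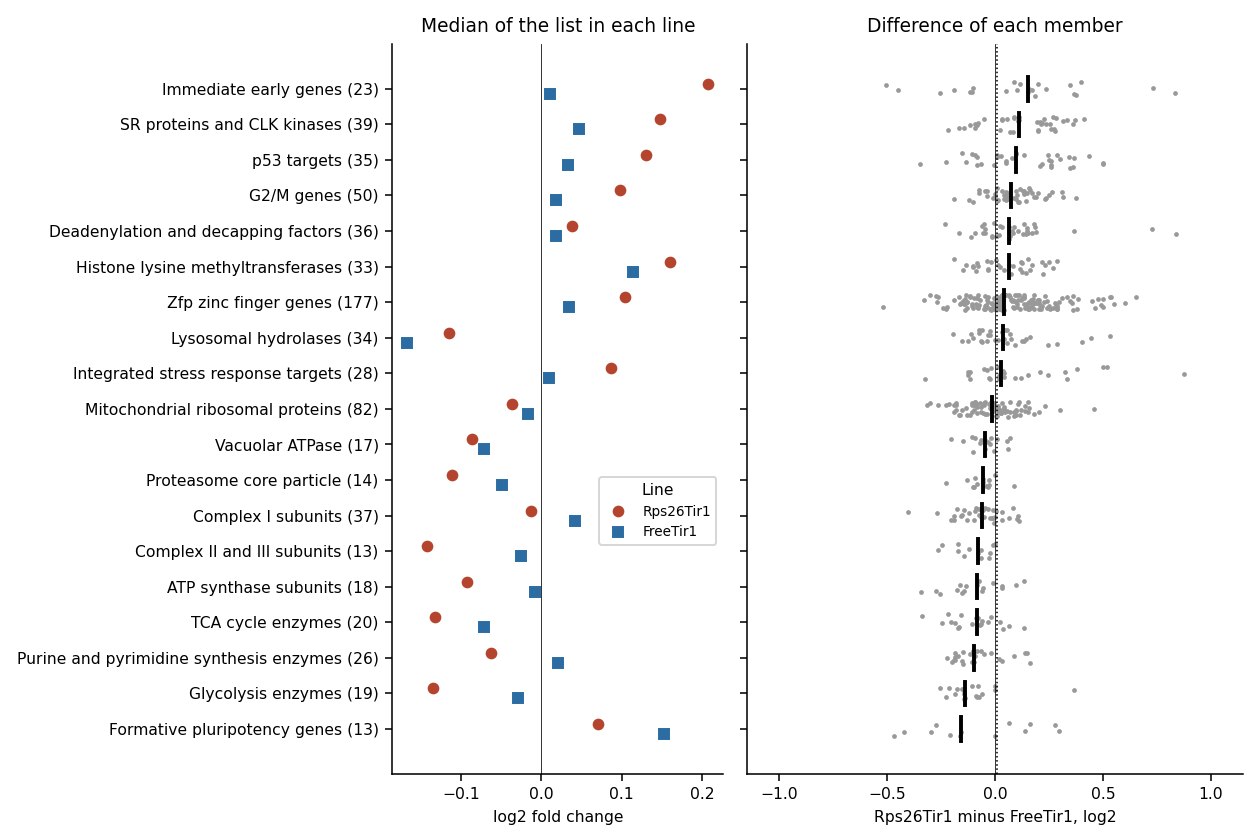
Left, median log2 fold change of gene lists in Rps26Tir1 (circle) and FreeTir1 cells (square); right, the difference of each member (points) with the list's median (bar), ordered by that median, with the dotted line at the median of all genes (0.01). The lists shown were chosen after their values were seen; immediate early genes are at the top (0.15) and formative pluripotency genes at the bottom (-0.16), below glycolysis enzymes (-0.14), and members of most lists spread across 0.

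Lists of protein turnover were compared by their signs in both lines, beside the 31.6% of all genes that were negative in both. Proteasome core subunits were negative in both lines for 11 of 14 and the regulatory particle for 11 of 20. The core had negative differences for 13 of 14, with a median of -0.06, or -0.04 and 9 of 14 after that regression; the regulatory particle had 14 of 20 negative and a median of -0.09, or -0.05 with the lines set to equal spread. Psma1 differed by -0.23 ± 0.14 and Psmd6 by -0.23 ± 0.17. Lysosomal hydrolases were negative in both lines for 24 of 34, with list medians of -0.12 in Rps26Tir1 and -0.17 in FreeTir1 cells. The protease genes Ctsb and Tpp1 stood at -0.35 and -0.28 in Rps26Tir1 cells, against -0.28 and -0.42 in FreeTir1 cells in the authors' deposited table; both were chosen after their values were seen. Within this list Smpd1, the acid sphingomyelinase, Ids, iduronate sulfatase, and Gla, alpha-galactosidase, had positive differences of 0.45 ± 0.17, 0.53 ± 0.20 and 0.40 ± 0.19 (8.82% of the list with p under 0.05, beside 2.05%). The list's median difference was 0.03, or 0.08 with the lines set to equal spread. Signal recognition and translocation genes of the endoplasmic reticulum were negative in both lines for 28 of 47, with a median difference of -0.03. Vacuolar ATPase subunits were negative in both for 9 of 17, with a median difference of -0.05, or -0.03 with the lines set to equal spread.

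Among genes of stem cell identity, pluripotency genes had 21 of 37 positive and a median of 0.02, with 22 of 37 positive in both lines; Klf2, a naive pluripotency factor, differed by 0.34 ± 0.18. Formative pluripotency genes, which mark the step after the naive state, had 5 of 13 positive and a median of -0.16, the lowest of the 66 lists, or -0.08 with the expression minimum at 2 or at 4. Foxd3 and Sox4 had negative differences with p under 0.05 (15.4% of the list, beside 0.938%). Foxd3 stood at -0.20 in Rps26Tir1 cells, against 0.27 in FreeTir1 cells in the authors' deposited table, and Sox4 at -0.24 and 0.19 in that order in the authors' deposited table. Nodal pathway genes had 7 of 16 positive and a median of -0.02. Lefty2 was the 1 past p of 0.05 (6.25% of the list, beside 0.938% of all). The Argonaute and microRNA processing genes were positive in both lines for 9 of 13, with list medians of 0.08 in Rps26Tir1 and 0.14 in FreeTir1 cells. Their differences were negative for 9 of 13, with a median of -0.09 and 0 with p under 0.05. Markers of other cell types were few at this expression, with 7 primitive endoderm, 4 neural, 3 fibroblast and 2 mesendoderm genes, and their part in the results was not tested. The 3 fibroblast genes differed by -0.22 for Thy1, -0.05 for Vim and -0.05 for Fn1. The fibroblast gene Col1a1, below the expression minimum, stood at -1.42 in Rps26Tir1 cells with adjusted p = 0.0254, against -0.05 in FreeTir1 cells in the authors' deposited table of limma-like statistics, and differed by -1.37.

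Transcript structure was set against the difference and against each line. Over the 8633 genes the difference had a Spearman correlation of 0.15 with the length of the whole transcript, which itself correlated at 0.29 in Rps26Tir1 and 0.21 in FreeTir1 cells. By its parts, the correlation of the difference was 0.14 with the length of the 3' part (stop codon and 3' UTR) and 0.14 with the number of ATTTA pentamers in it, against 0.07 with coding length. The fold changes of the lines ran differently: coding length correlated at 0.20 in Rps26Tir1 and at 0.18 in FreeTir1 cells, and the 3' part at 0.17 in Rps26Tir1 and 0.07 in FreeTir1 cells. These are descriptions across genes, which share libraries and are not independent. The decile of genes with the longest 3' parts, median 4288.5 bases, had a median difference of 0.05 and 62.8% positive, and the decile with the shortest, median 96.5 bases, had -0.01 and 46.1%. Within the tercile of genes with the shortest coding regions the median difference was -0.02 for the tercile with the shortest 3' parts and 0.03 for that with the longest. In the middle coding tercile it was -0.03 and 0.03, and in the longest 0.00 and 0.04, in the same order. By ATTTA pentamers, the AU-rich core that binds decay factors, the highest decile (median 10 copies) had a median difference of 0.05 and 65.2% positive, and longer 3' parts hold more copies. GC content of the transcript correlated at -0.09 with the difference, at -0.09 in Rps26Tir1 and at -0.02 in FreeTir1 cells, and the number of exons at 0.03 with the difference, 0.11 in Rps26Tir1 and 0.11 in FreeTir1 cells.

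**Figure D5:**
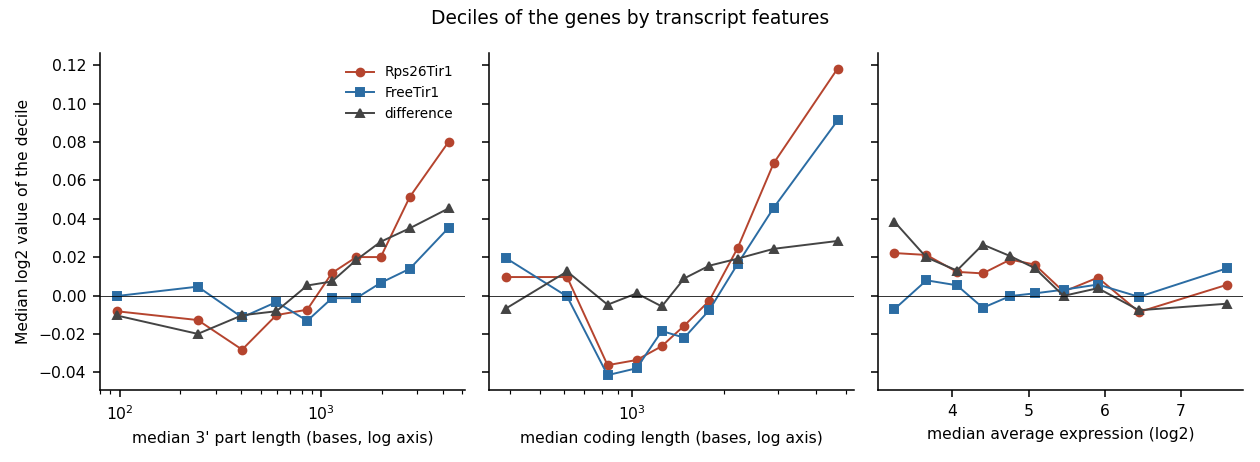
Median log2 value of each decile of the 8633 genes against the decile's median 3' part length, coding length (both log axes) and average expression, for Rps26Tir1 (circles), FreeTir1 (squares) and the difference (triangles). The difference climbs with 3' part length (-0.01 in the lowest and 0.05 in the highest decile), while along coding length both lines dip in the lower deciles and are highest in the top one (0.12 in Rps26Tir1 and 0.09 in FreeTir1 cells), where the difference is 0.03 against -0.01 in the lowest.

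Values near the limit of average expression bear on how firmly single genes can be read. The 100 genes just inside it, up to an expression of 3.06, had differences from -0.43 to 0.76, with a median of 0.07 and a median SE of 0.20. The 100 just outside, from 2.94 up, had differences from -0.44 to 1.73, a median of 0.05 and a median SE of 0.21.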

How the data were processed

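Polysome fraction RNA was sequenced in 24 libraries, grouped by line, treatment and fraction from their labels. What was analysed is the authors' deposited comparison table: per the file headers it holds, for each line, a log fold change and an average expression, read here as log2 because the headers match limma's although no base is stated, and a p-value with its adjusted form. The sources used here name no aligner, counting method, build or model, and the fold change may pool fractions. Extraction was with Trizol and libraries were paired-end TruSeq of polyadenylated RNA, per the labels' protocols. Depth is unknown, so precision is known only from the standard errors.

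The members and the 66 gene lists were chosen with earlier results of these data known. The standard error of each line was worked back from its p-value and fold change with 29 degrees of freedom, the whole number between 8 and 60 at which the ratio of the lines' errors varied least. The difference was divided by the root of the summed squared errors and tested two-sided in a moderated-t form like limma's, which assumes independent errors in the lines, with Benjamini-Hochberg adjustment over 13504 genes. The procedure was also run on simulated data, drawn with 29 degrees of freedom and errors of the size worked back here. Such data cannot show how well the test fits the real values. The design planned for values per library was replaced by this table-based test. Named genes are the 14 smallest p in each direction, 8 shared and up to 6 opposed in each direction, and up to 4 per list described; unnamed gene models are counted but not named. Asns, Psat1, Phgdh, Ddit3, Cdk1, Ccnb1, Setd2 and Kmt2a were also chosen after their values were seen. Lists are described by counts and medians, without a test. Transcript features come from GENCODE M21 (GRCm38), to which all 13504 rows matched by identifier; 329 of the 8633 genes share over 50% of their 31-base stretches with other genes. Python 3.11.15, numpy 2.4.6, pandas 2.3.3, scipy 1.17.1 and matplotlib 3.10.9 were used.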

Additional observations from a re-analysis of the deposited data

Results flagged for a closer look

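Rnaset2b (chromosome 17, 6970634 to 7011299, GRCm38), a ribonuclease gene, was the 1 gene of the table whose difference between the lines had adjusted p under 0.05 in the moderated-t form of test across all genes (adjusted p = 0.0414). It stood at -1.95 in Rps26Tir1 cells, against 0.41 in FreeTir1 cells in the authors' deposited table, and the difference was -2.36 ± 0.41 (SE). Its average expression of 2.06 lies below the minimum of 3, and 91.6% of its 31-base stretches are also found in another gene's transcripts, so that reads may be split among copies. The part of that sharing in the difference was not tested.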

How the results depend on the processing

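No paired analysis was possible because the deposited table has no values per library, so neither the replicate numbers nor the leaving out of libraries could be used. Of all genes, 1 passed adjusted p of 0.05. The count was 0 with 20 degrees of freedom, 3 with 60, 0 with FreeTir1 values scaled to the spread of the Rps26Tir1 line, 0 without genes of over 50% shared sequence and 0 when adjusted over the 8633 genes only. Leaving out shared-sequence genes or genes below the expression minimum also removes Rnaset2b, so its loss in those counts was fixed in advance. Shared positive genes numbered 17 at p under 0.01 in each line and 198 at 0.10, shared negative ones 21 and 194, and opposed ones 1 and 12, against 93, 96 and 3 at 0.05. Opposed genes numbered 9 with a minimum expression of 2 and 1 with 4. Across lists and alternatives, median differences moved by more than their spread in 22 cases and stayed within it in 350. After regression on length, GC and expression, the moved cases included p53 targets 0.1296, complex I -0.0035, ATP synthase -0.0381, Zfp genes 0.0238 and methyltransferases 0.0323. With the lines at equal spread they included lysosomal hydrolases 0.0763 and glycolysis -0.0853. With a minimum expression of 2 they included p53 targets 0.1456 and Zfp genes 0.0881. With equal spread 6 shared genes with small differences changed sign: Amotl2 to -0.052, Bahcc1 to -0.0628, Plbd2 to 0.135, Mta1 to 0.046, Ctbs to 0.0961 and Tprn to 0.0429. The counts at unadjusted p under 0.05 and the share of positive differences stayed within 1.5 times or 5 points of their values in every alternative tried. Where no cause is given for a change, the cause was not tested.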
